A study of Rattus norvegicus with 4 samples.

Results

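The SWI/SNF complex of mammals, also called the BAF complex, is described here through 10 of its subunits: Smarcc1, Smarcc2, Smarca2, Smarca4, Smarcb1, Smarcd1, Smarce1, Arid1a, Arid1b and Actl6b. They were taken by symbol from the 25399 genes of the deposited tables, and all 10 were found. Smarcc1 was chosen because it was higher after methamphetamine (METH) in astrocyte-like nuclei, so that difference is given as a description, without a test. The question asked of the other 9 genes was whether they follow it.

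Single-nucleus RNA sequencing was done on the orbitofrontal cortex, a prefrontal region that weighs the value of outcomes. The animals were wild-type male Sprague-Dawley rats aged 8 weeks, injected intraperitoneally for 7 days with METH at 1 mg/kg or with saline, and the series title places them in a model of sensitization to the drug. Each group has 2 libraries. Tissue came from 4 animals per group. The labels do not tie animals to libraries, so a p-value reflects only how far these libraries vary, and part of that may be technical.

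BAF complexes use the energy of ATP to slide or evict nucleosomes, and thereby open or close stretches of chromatin to transcription factors. Each complex holds a single ATPase, Smarca4 (BRG1) or Smarca2 (BRM), on a scaffold of Smarcc1 (BAF155) and Smarcc2 (BAF170), with Smarcb1, Smarcd and Smarce1 proteins, an ARID protein and an actin-like protein. In the nervous system subunits are exchanged as cells mature: neural progenitors use the actin-like Actl6a (BAF53a), and neurons after their last division use Actl6b (BAF53b).

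Promoters are shown for 3 genes: Smarcc1, the gene that differed in astrocyte-like nuclei, and Actl6b with its alternative Actl6a, the pair whose balance differed most between neurons and glia. The sequences are RefSeq's, on build GRCr8, run 5′ to 3′ on the gene's strand and cover 250 bases before to 50 bases after the annotated start. They lie at chr8:118989306-118989605 (plus strand), chr12:24778102-24778401 (minus strand) and chr2:117420481-117420780 (plus strand). Capitals mark GC boxes (GGGCGG) and CCAAT boxes (CCAAT), searched on both strands.
Smarcc1: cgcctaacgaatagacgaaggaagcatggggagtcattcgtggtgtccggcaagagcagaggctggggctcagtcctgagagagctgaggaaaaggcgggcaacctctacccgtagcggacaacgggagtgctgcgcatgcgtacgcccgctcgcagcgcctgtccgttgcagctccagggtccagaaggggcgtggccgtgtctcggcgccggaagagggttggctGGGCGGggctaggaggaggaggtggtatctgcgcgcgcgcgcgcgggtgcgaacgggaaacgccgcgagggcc
Actl6b: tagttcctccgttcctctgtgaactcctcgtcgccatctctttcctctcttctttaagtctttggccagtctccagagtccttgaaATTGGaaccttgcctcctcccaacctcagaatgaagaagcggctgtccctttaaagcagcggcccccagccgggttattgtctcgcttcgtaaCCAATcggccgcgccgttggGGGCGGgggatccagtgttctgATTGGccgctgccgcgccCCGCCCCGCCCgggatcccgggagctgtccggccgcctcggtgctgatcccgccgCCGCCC
Actl6a: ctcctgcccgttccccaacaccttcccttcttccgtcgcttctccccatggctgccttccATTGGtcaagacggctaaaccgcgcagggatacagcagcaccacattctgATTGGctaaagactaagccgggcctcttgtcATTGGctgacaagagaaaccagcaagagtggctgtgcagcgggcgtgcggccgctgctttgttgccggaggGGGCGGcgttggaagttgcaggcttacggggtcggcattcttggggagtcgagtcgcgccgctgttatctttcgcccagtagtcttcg
Smarcc1 held 1 GC box and 0 CCAAT boxes, Actl6b held 4 GC boxes, a pair of which overlap, and 3 CCAAT boxes, and Actl6a held 1 GC box and 3 CCAAT boxes. A promoter was found in the table for 9 of the 10 subunits, all but Smarcc2. All 9 held at least 1 GC box, against 33.1% of the 33469 promoters of the same length, and they held 24 to 44 CpG dinucleotides against a median of 7. A CCAAT box was present in 37.5% of all promoters and, among the 9, in those of Smarca4 and Actl6b. The AP-1 site TGANTCA (7.33% of all promoters) was found in that of Smarcb1 alone. The cyclic AMP response element TGACGTCA (1.83%) and TTCAGCACC, the left part of the RE1 element (0.356%), were found in none of the 9.

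After filtering, 39000 nuclei remained, 7581 to 14576 per library, from deposited libraries of 37758602 to 44034787 UMIs (unique molecular identifiers, each counting 1 captured transcript). They fell into 25 clusters, which were named by marker genes into 8 classes with enough nuclei to test, from 302 newly formed oligodendrocyte-like to 20699 excitatory neuron-like nuclei. The 4024 astrocyte-like nuclei were 1 cluster, with 7 of the 9 astrocyte markers detected in at least 10% of its nuclei. Saline replicate 1 stood apart, with the most nuclei and the lowest median depth, 1966 UMIs against 2795 to 3509 in the other libraries. It also held 2395 of the 2859 nuclei of a cluster of excitatory neurons led by Plk5 and Otof. Libraries shared 23 to 69 barcodes per pair, under 1% of the smaller library. In 906 nuclei the markers settled no name. Of these, 379, led by Flt1 and Cyyr1, formed the cluster with endothelial genes, so the vascular-like class holds mural and fibroblast-like nuclei. A further 488 unnamed nuclei, led by Cx3cr1, scored highest for microglia but too near oligodendrocytes to be named. Saline replicate 1 gave 288 of them, against 82 in each METH library and 36 in saline replicate 2. The last 39, nearest to astrocytes, all came from saline replicate 1.

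Smarcc1, which encodes the BAF155 scaffold, was highest in astrocyte-like nuclei and differed there between the groups. It reached 382 and 390 CPM (the gene's share of all UMIs of the class in that library, where 10000 CPM is 1%) in replicates 1 and 2 of METH, against 217 and 223 in the saline pair. These levels rest on 589, 794, 276 and 272 UMIs. The replicates of each group lay close together and the groups did not overlap. The fitted log2 fold change was 0.82 (SE 0.11), or 1.76-fold, and Smarcc1 was chosen for this value. Leaving out 1 library at a time gave 0.78 to 0.85, with 0.79 without saline replicate 1.

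The same UMIs, on which Smarcc1 was chosen, are described here per nucleus and add no separate support. More nuclei carried the transcript, and more carried several copies of it. With every nucleus thinned to 1000 UMIs, Smarcc1 was detected in 28.2% (95% exact Clopper-Pearson interval 25.2 to 31.4) and 29.1% (26.3 to 32.0) of astrocyte-like nuclei from METH, against 15.8% (12.7 to 19.3) and 18.4% (15.4 to 21.6) from saline. The intervals cover counting error only. The share with at least 3 UMIs was 2.61% and 2.48% in METH, against 0.200% and 0.805% in saline. Thinning left out 755 of 1254 astrocyte-like nuclei of saline replicate 1, and 171, 69 and 58 in the first and second METH libraries and the other saline library. As deposited, the share without any Smarcc1 UMI was 64.9% and 61.1% in METH and 81.0% and 69.7% in saline. In excitatory neuron-like nuclei thinned the same way, 11.5% and 11.9% of METH and 12.1% and 12.3% of saline nuclei carried the transcript. No cell class lacked Smarcc1, so no class gives its background from free RNA.

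**Figure D1:**
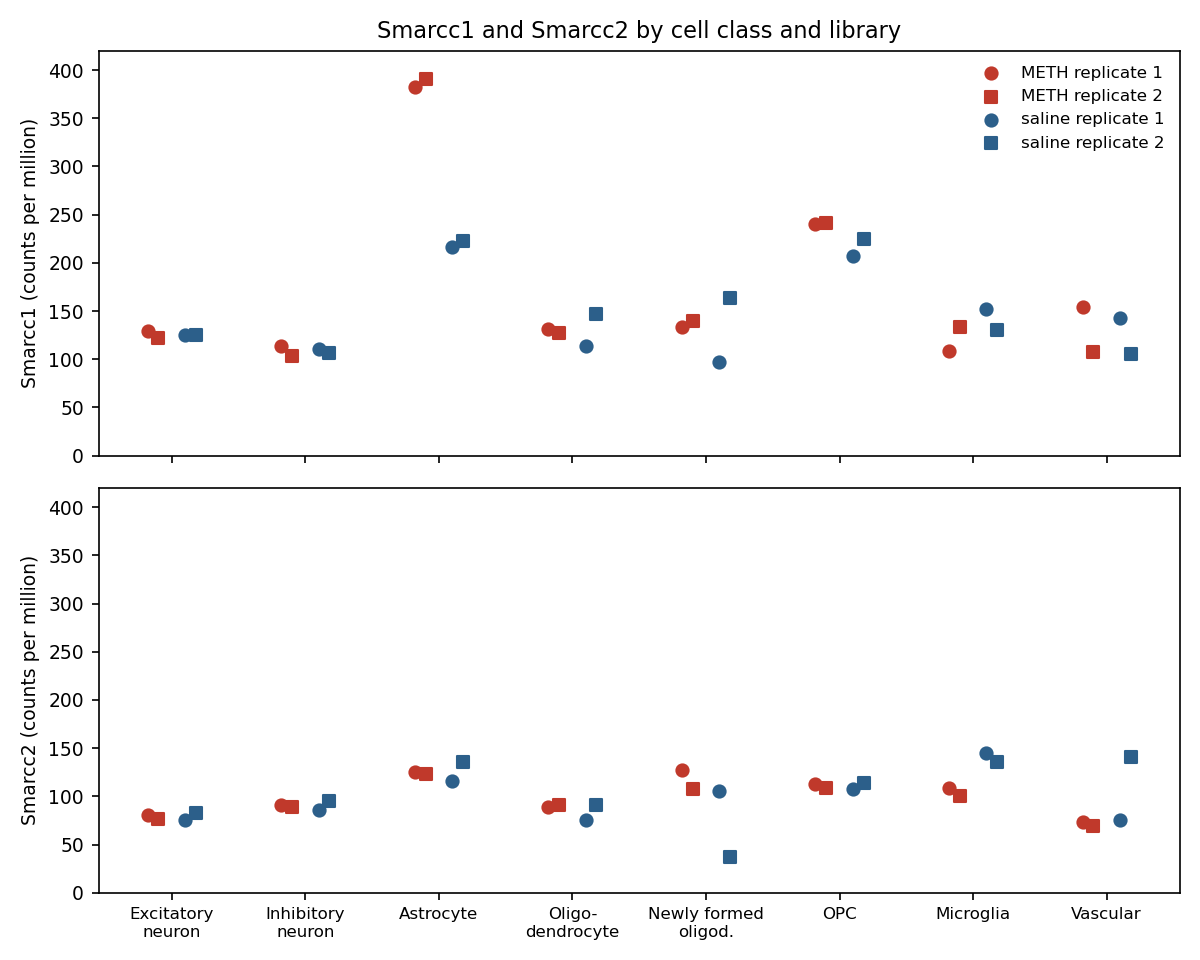
Level of Smarcc1 (top) and of its partner Smarcc2 (bottom), in CPM, in 8 cell classes; each point is 1 library, red for METH and blue for saline, circles for replicate 1 and squares for replicate 2. In astrocyte-like nuclei the METH libraries sit at 382 and 390 for Smarcc1, above saline at 217 and 223, while the Smarcc2 points of the groups mix.

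Depth and marker genes of astrocyte-like nuclei were recorded beside this value. Median depth overlapped between the groups, at 1421 and 1721 UMIs in METH and 918.5 and 1665 in saline. Of the 9 astrocyte markers 1 was lower in both METH libraries and 1 higher. The lower one was Gfap, the intermediate filament of reactive and fibrous astrocytes, at 237 and 264 CPM after METH and 357 and 307 CPM after saline. The higher one was Ntsr2, a neurotensin receptor, at 72.0 and 75.7 CPM after METH and 65.2 and 71.3 CPM after saline. The summed level of 11 microglial markers was 115 and 124 CPM after METH and 92.7 and 80.3 CPM after saline, with 5 of the 11 higher in both METH libraries (15.2% of all genes tested were), 1 lower (15.4%) and 2 at 0 in a library. Among them, C1qa stood at 37.6 and 40.8 CPM after METH and at 25.9 and 22.1 CPM after saline. The summed level of 8 oligodendrocyte markers overlapped, at 382 and 290 CPM after METH and 315 and 238 CPM after saline, with 3 of the 8 higher and 0 lower. That of 5 OPC (oligodendrocyte precursor) markers overlapped too, at 46.0 and 39.8 CPM after METH and 33.0 and 41.0 CPM after saline, with 3 of the 5 higher and 1 lower. Smarcc1 itself was at 109 to 153 CPM in microglia-like nuclei and 114 to 147 CPM in oligodendrocyte-like nuclei, below every astrocyte value. In OPC-like nuclei it was at 207 to 242 CPM, a range that holds both saline astrocyte values and lies below both METH ones. The part of these measures in the Smarcc1 difference was not tested.

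Genes beside Smarcc1 on the chromosome, in the order of the RefSeq annotation, did not pass the test in astrocyte-like nuclei. Cspg5, the next gene on one side, which encodes a chondroitin sulfate proteoglycan, was at 288 and 239 CPM after METH and 220 and 252 CPM after saline (log2 fold change 0.16, SE 0.12). Dhx30, the next gene on the other side, was at 138 and 161 CPM after METH and 136 and 138 CPM after saline (0.14, SE 0.13). For 7 tested neighbours the adjusted p of edgeR's quasi-likelihood test was 0.999 each.

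None of the partner subunits followed Smarcc1 in astrocyte-like nuclei past the test. Of the 9 partners, 7 had enough counts to be tested, and 0 were called at an adjusted p under 0.05 by edgeR's quasi-likelihood test with Benjamini-Hochberg adjustment over 10090 genes. At an unadjusted p under 0.05 the count was also 0, against 3.33% of all genes tested, and DESeq2 called 0. Over all genes 0.00991% were called, a share that consists of Smarcc1 itself, and since the gene was chosen on these values nothing is read from it. The median log2 fold change of the 7 partners was 0.03, with 5 above 0, and that of all genes was -0.00.

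Smarcc2, which encodes the second scaffold protein and pairs with Smarcc1 in the core, was at 126 and 123 CPM after METH and 116 and 135 CPM after saline. The METH values lay within the saline range. The log2 fold change was -0.01 (95% interval -0.29 to 0.27), so a rise of the size seen for Smarcc1 lies outside the interval. On the UMIs of the pair, the log2 ratio of Smarcc1 to Smarcc2 was 1.60 and 1.66 in METH and 0.90 and 0.72 in saline. Since the Smarcc2 values overlapped, this ratio restates the difference for which Smarcc1 was chosen.

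The estimates for the ATPases had opposite signs, neither past the test. Smarca2 was at 625 and 569 CPM after METH and 616 and 683 CPM after saline, overlapping values with a log2 fold change of -0.12 (-0.34 to 0.10). Smarca4 was at 136 and 142 CPM after METH and 108 and 139 CPM after saline (0.17, -0.13 to 0.47). Its low value belongs to saline replicate 1, and the other 3 libraries were within 136 and 142 CPM.

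Of the smaller core subunits, Smarcd1, which encodes the BAF60a bridge to transcription factors, was at 70.0 and 73.2 CPM after METH and 67.5 and 68.8 CPM after saline. It was the 1 of the 7 tested partners whose METH values both exceeded both saline values, a pattern shown by 15.2% of all genes tested, and 0 partners showed the opposite (15.4% of genes). Its log2 fold change was 0.08 (-0.26 to 0.42). Smarce1, which encodes the DNA-binding HMG-box protein BAF57, was at 82.3 and 62.9 CPM after METH and 60.5 and 77.8 CPM after saline (0.07, -0.33 to 0.46). Each group had a high and a low library.

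The ARID subunits, large DNA-binding proteins of which a canonical complex holds 1, gave estimates near 0. Arid1a was at 200.3 and 186 CPM after METH and 193 and 186 CPM after saline (0.03, -0.21 to 0.27). Arid1b was at 402 and 371 CPM after METH and 379 and 394 CPM after saline (0.00, -0.22 to 0.22). For both genes the values of the groups mixed.

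The remaining partners could not be tested in astrocyte-like nuclei. Actl6b, the neuronal actin-like subunit, gave 8 and 5 UMIs there after METH and 14 and 4 after saline. Smarcb1, which encodes the SNF5 core subunit, is listed at 0 in every class and library, although other genes of the same complex carry UMIs in all of them. It is given no level or fold change here.

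**Figure D2:**
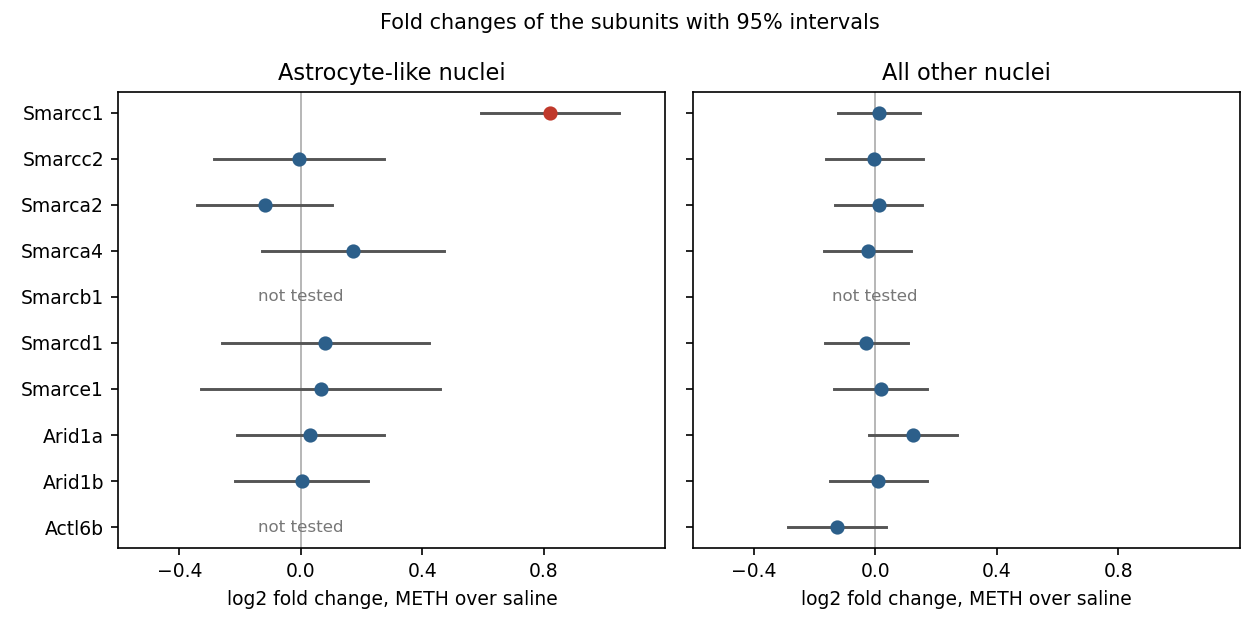
Log2 fold change of METH over saline for each subunit in astrocyte-like nuclei (left) and in all other nuclei summed (right); points are edgeR estimates from 2 libraries per group, lines are 95% intervals, and the red point marks Smarcc1 in the nuclei it was chosen from. The astrocyte estimates of the partners run from -0.12 to 0.17 beside 0.82 for Smarcc1.

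The difference of Smarcc1 was not seen when all nuclei other than astrocyte-like were summed. Most UMIs in these sums came from excitatory neuron-like nuclei, so they say little of the smaller classes. These sums gave 131 and 127 CPM after METH and 126 and 128 CPM after saline, with a log2 fold change of 0.01 (95% interval -0.12 to 0.15). None of the 9 subunits tested there was called, 0 had an unadjusted p under 0.05 (4.84% of 16101 genes), and DESeq2 called 0. Among all 16101 genes 0% were called. The subunit estimates lay between -0.13 (Actl6b) and 0.13 (Arid1a). Both METH values exceeded both saline values for 2 subunits, Smarce1 and Arid1a (17.9% of genes), and lay below both for 1, Actl6b (15.9%). Arid1a was at 114 and 107 CPM after METH and at 98.9 and 102 CPM after saline in these sums. Class make-up differs between the libraries, with microglia-like nuclei, where Arid1a is highest, at 5.76% and 7.09% of METH and 1.06% and 6.49% of saline nuclei. Excitatory neuron-like nuclei, where Arid1a is lowest and Actl6b highest, were 45.4% and 40.8% of METH and 67.4% and 47.5% of saline nuclei. The microglia-like shares leave out the unnamed cluster nearest to microglia, with 288 nuclei of saline replicate 1 and 36 to 82 of each other library. The part of class make-up in the Arid1a and Actl6b values was not tested.

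Within the other classes taken singly, 7 to 9 subunits were tested in each, 0 were called by edgeR, 0 had an unadjusted p under 0.05 and DESeq2 called 0. Over all genes the share called was 0.00664% in excitatory neuron-like, 0.0169% in inhibitory neuron-like, 0.0336% in oligodendrocyte-like, 0.204% in newly formed oligodendrocyte-like, 0.0407% in OPC-like, 0% in microglia-like and 0.0219% in vascular-like nuclei. The shares at an unadjusted p under 0.05 were, in the same order, 3.22%, 4.15%, 4%, 7.04%, 4.84%, 3.37% and 6.67%.

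The direction of single subunits varied from class to class. In excitatory neuron-like nuclei both METH values exceeded both saline values for 0 subunits (11.5% of genes) and lay below both for 2, Smarcd1 and Actl6b (20.2%). In inhibitory neuron-like nuclei the counts were 3 higher, Smarca2, Smarca4 and Actl6b (16.5%), and 0 lower (15.9%). In oligodendrocyte-like nuclei Smarca4 was the 1 higher (13.6%) and Smarca2 the 1 lower (19.4%), the latter at 142 in both METH libraries and 165 and 170 CPM after saline. OPC-like nuclei had 1 higher, Smarcc1 (15.8%), and 0 lower (16.3%), and vascular-like nuclei 0 higher (15.8%) and 1 lower (19.6%). In vascular-like nuclei the vascular markers summed to 2770 and 2718 CPM after METH and 984 and 2410 CPM after saline. Astrocyte markers there summed to 1775 and 2378 CPM after METH and 3373 and 3213 CPM after saline. The part of this make-up in the vascular-like values was not tested. Smarcc1 in OPC-like nuclei was at 241 and 242 CPM after METH and 207 and 225 CPM after saline. The log2 fold change there was 0.15 (95% interval -0.08 to 0.39). In excitatory neuron-like nuclei Smarcc1 was at 129 and 122 CPM after METH and 125 in both saline libraries (0.03, -0.11 to 0.17). Its intervals were -0.19 to 0.18 in inhibitory neuron-like, -0.36 to 0.30 in oligodendrocyte-like and -0.62 to 0.32 in microglia-like nuclei. They were wider in newly formed oligodendrocyte-like (-0.63 to 0.75) and vascular-like nuclei (-0.66 to 0.90). The vascular-like interval holds the astrocyte estimate of 0.82, so a difference of that size is not excluded there.

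The widest estimates came from the small classes. In newly formed oligodendrocyte-like nuclei, which number 57 to 98 per library, Smarcc2 was at 127 and 107 CPM after METH and 106 and 37.3 CPM after saline (0.78, -0.10 to 1.65). Smarca4 was at 216 and 220.3 CPM after METH and 177 and 127 CPM after saline in the same class (0.56, -0.06 to 1.19). Both METH values exceeded both saline values for 4 of the 8 subunits tested in that class (16.3% of genes), and 1 lay below (20%). In microglia-like nuclei 4 of 8 were higher, Smarca2, Smarca4, Smarcd1 and Arid1a (16% of genes), and 1 was lower, Smarcc2 (15.9%). Smarca2 there was at 386 and 503 CPM after METH and 334 and 364 CPM after saline (0.34, -0.01 to 0.69), and Smarcc2 went the other way, at 109 and 100.2 CPM against 145 and 136 CPM (-0.40, -0.87 to 0.07). Saline replicate 1 held 154 microglia-like nuclei, against 492 to 561 in the other libraries. The unnamed cluster nearest to microglia held 288 more nuclei of that library, against 36 to 82 of each other one.

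Whether the METH effect on a subunit differed between astrocyte-like and excitatory neuron-like nuclei was tested directly, with the library as a block. For the 8 partners tested, 0 differences were called by edgeR, 0 had an unadjusted p under 0.05 (3.15% of 15008 genes) and DESeq2 called 0, with 0% of all genes called. Their estimates ran from -0.95 (Actl6b, SE 0.58) to 0.16 (Smarca4, SE 0.16). For Smarcc1 the difference was 0.78 (SE 0.14), a description since the gene was chosen on the astrocyte value.

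Across cell classes the subunits had distinct profiles, described here as means ± SD over the 4 libraries. Classes are clusters of the same nuclei, so no test was made between them. Smarcc1 was highest in astrocyte-like nuclei (303 ± 96.1 CPM, an SD that holds the METH difference) and next in OPC-like nuclei (229 ± 16.1). The remaining classes lay from 109 ± 4.52 in inhibitory neuron-like to 133 ± 27.6 in newly formed oligodendrocyte-like nuclei, with ranges that overlap among most of them. In the saline libraries alone the astrocyte values, 217 and 223, overlapped those of OPC-like nuclei, 207 and 225. Smarcc2 was flatter, from 78.9 ± 3.50 in excitatory neuron-like to 125 ± 7.83 in astrocyte-like nuclei, and each neighbouring pair in its order overlapped.

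The ATPases diverged in glia. Smarca2 was at 623 ± 47.0 CPM in astrocyte-like nuclei, above every other class, and at 155 ± 14.9 in oligodendrocyte-like nuclei, 4.03-fold lower. Newly formed oligodendrocyte-like nuclei were at the same level, 155 ± 28.2, while their precursors, the OPC-like nuclei, were at 286 ± 21.7, with no overlap. Smarca4 varied less, from 185 ± 11.0 in inhibitory neuron-like to 88.8 ± 7.12 in oligodendrocyte-like nuclei, the 1 class that stood clear of its neighbour. Newly formed oligodendrocyte-like nuclei had Smarca4 at 185 ± 43.5. The log2 ratio of Smarca2 to Smarca4 was 1.24 ± 0.27 higher in astrocyte-like than in excitatory neuron-like nuclei, and in newly formed oligodendrocyte-like nuclei it was lower, at -1.25 ± 0.24 relative to the same neurons. Ratios of a pair are compared only between classes or between groups, since their size also depends on how well each transcript is captured.

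Smarcd1 was highest in oligodendrocyte-like nuclei (114 ± 9.82 CPM) and lowest in microglia-like (51.9 ± 3.88) and vascular-like nuclei (50.9 ± 7.64). Smarcd3 encodes BAF60c, an alternative to the Smarcd1 protein. The log2 ratio of Smarcd1 to Smarcd3 was 2.97 ± 0.98 higher in oligodendrocyte-like than in excitatory neuron-like nuclei. Few Smarcd3 UMIs stand behind this value, since the log2 ratio was 3.04 to 5.24 there on 41 to 175 Smarcd1 UMIs per library. Smarce1 was lowest in excitatory neuron-like nuclei, at 39.1 ± 1.18 CPM, apart from all other classes, which lay from 58.5 ± 7.18 to 99.6 ± 27.6.

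Among the ARID subunits Arid1a varied with cell class and Arid1b less so. Arid1a was at 353 ± 35.1 CPM in microglia-like nuclei, clear of all others, and at 93.4 ± 5.08 in excitatory neuron-like nuclei, 3.78-fold lower, with inhibitory neuron-like nuclei beside them at 99.5 ± 2.25. Arid1b stayed from 346 ± 34.3 to 442 ± 37.9 CPM in 7 classes and lay below them in oligodendrocyte-like nuclei, at 259 ± 20.3. Relative to excitatory neuron-like nuclei the log2 ratio of Arid1a to Arid1b was 1.66 ± 0.20 higher in microglia-like, 1.51 ± 0.06 in oligodendrocyte-like, 0.97 ± 0.07 in astrocyte-like and 0.11 ± 0.05 in inhibitory neuron-like nuclei. In each of these classes the ratio of every library kept its side of the excitatory one.

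**Figure D3:**
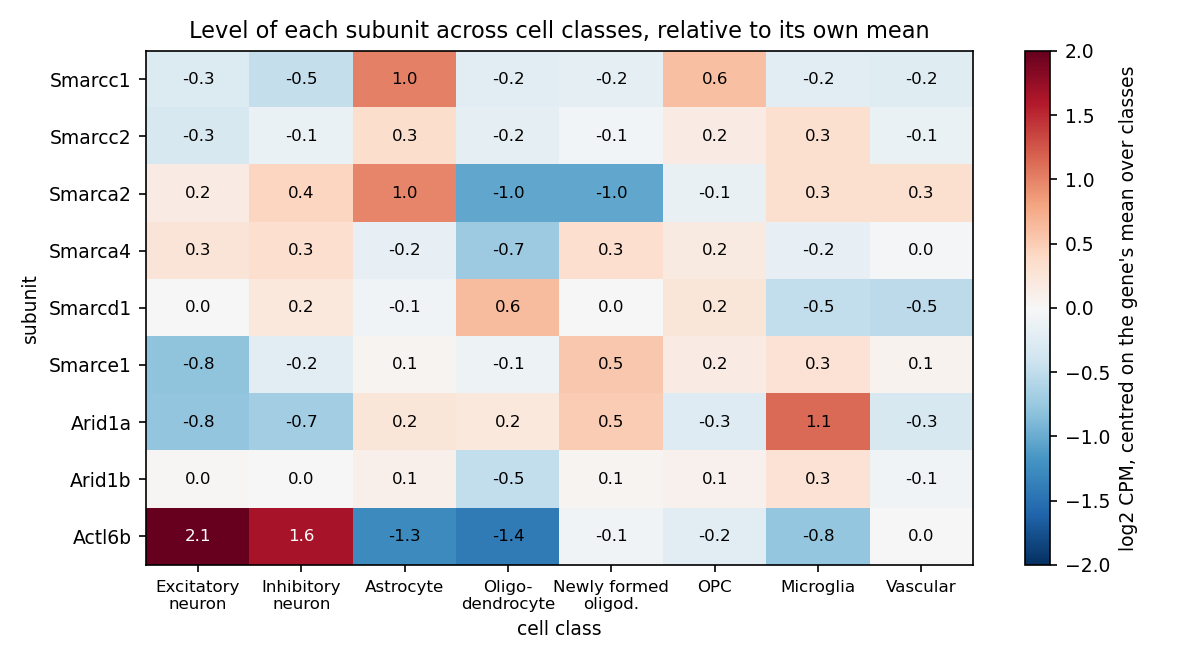
Mean log2 CPM over 4 libraries for 9 subunits (rows) in 8 cell classes (columns), with each gene centred on its own mean over the classes; red is above and blue below that mean. Actl6b stands out in the neuronal classes, Smarca2 and Smarcc1 in astrocyte-like nuclei and Arid1a in microglia-like nuclei, and Smarcb1 is left out since it is listed at 0. The means hold both groups. In saline alone Smarcc1 in astrocyte-like nuclei (217 and 223 CPM) overlapped that in OPC-like nuclei (207 and 225 CPM).

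Actl6b was the subunit with the widest range. In excitatory neuron-like nuclei it was at 53.2 and 56.1 CPM after METH and 56.5 and 57.1 CPM after saline. In inhibitory neuron-like nuclei it was at 40.9 and 43.4 CPM after METH and 39.9 and 40.7 CPM after saline, so every excitatory value exceeded every inhibitory one. In the 6 other classes the means were 4.96 ± 1.58 to 13.3 ± 9.05 CPM, with as few as 1 UMI per library behind them. The excitatory mean was 11.2-fold that of oligodendrocyte-like nuclei. Saline replicate 1 had the highest Actl6b value in each of those 6 classes, such as 11.0 CPM in astrocyte-like nuclei against 2.46 to 5.19 in the other libraries. Excitatory markers in astrocyte-like nuclei were also highest in saline replicate 1, at 263 CPM summed over 5 genes against 118 to 161 CPM, and their part in the Actl6b value was not tested. Without saline replicate 1 the ratio of highest to lowest class was 15.2, with astrocyte-like nuclei lowest.

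Actl6a, the alternative to Actl6b, differed far less between neurons and glia. It was at 22.6 ± 1.17 CPM in excitatory neuron-like nuclei and 27.5 ± 1.93 CPM in astrocyte-like nuclei. The log2 ratio of Actl6b to Actl6a was lower than in excitatory neuron-like nuclei by 3.94 ± 0.50 in oligodendrocyte-like, 3.87 ± 0.85 in astrocyte-like and 2.52 ± 0.52 in OPC-like nuclei (in each of the 4 libraries), and by 0.37 ± 0.22 in inhibitory neuron-like nuclei. After thinning to 1000 UMIs, 5.37% to 6.42% of excitatory neuron-like nuclei carried an Actl6b UMI and 0.298% to 0.601% of astrocyte-like nuclei, a level that free RNA can give.

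**Figure D4:**
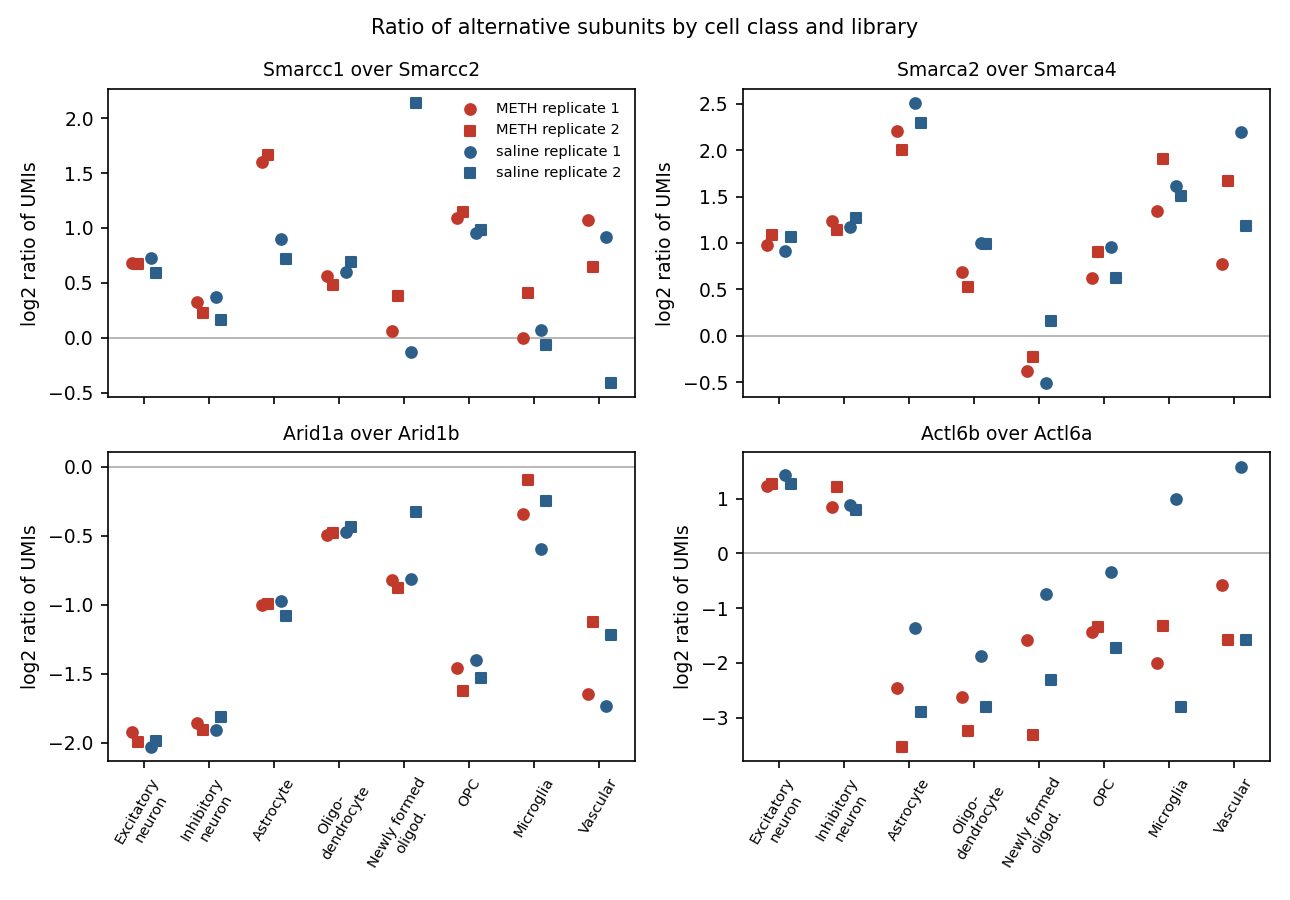
Log2 ratio of the UMIs of 4 pairs of alternative subunits in 8 cell classes; each point is 1 library, red for METH and blue for saline, and the grey line marks equal UMIs. The Actl6b to Actl6a ratio is above 0 in all neuronal points and, outside neurons, in saline replicate 1 of microglia-like and vascular-like nuclei. In astrocyte-like nuclei the Smarcc1 to Smarcc2 ratio is 1.60 and 1.66 in METH against 0.90 and 0.72 in saline, which restates the difference for which Smarcc1 was chosen.

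Other exchangeable subunits add to this picture. Dpf3, a zinc-finger subunit of the DPF family that binds modified histones, was at 270.1 ± 27.3 CPM in astrocyte-like and 90.7 ± 4.51 in OPC-like nuclei, against 9.88 ± 2.01 in excitatory neuron-like nuclei. Dpf1, of the same family, was at 33.5 ± 3.62 in excitatory neuron-like nuclei and also at 33.8 ± 6.15 in OPC-like nuclei. Ss18l1, which encodes the neuronal subunit CREST, was at 10.6 ± 1.21 in excitatory and 9.61 ± 0.76 in inhibitory neuron-like nuclei. Those values overlapped the ranges of OPC-like, microglia-like, newly formed oligodendrocyte-like and vascular-like nuclei. They lay above every value of astrocyte-like (6.51 ± 1.47) and oligodendrocyte-like nuclei (4.93 ± 2.75). Bcl11a was at 515 ± 9.87 and 477 ± 44.7 in the neuronal classes and at 29.6 ± 24.0 to 103 ± 18.3 elsewhere. Bcl11b, its paralogue and a marker of deep-layer neurons, was at 112 ± 20.5 and 150 ± 10.3 in the neuronal classes and at 2.77 ± 5.54 to 16.5 ± 14.0 elsewhere.

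Within neurons Smarca2 had the widest range of cluster means among the 9 of the 10 subunits with UMIs. It ran from 79.4 CPM in the excitatory cluster led by Klhl1 and Chst8 through 125 CPM in that led by Il1rapl2 and Scube1 to 730.4 CPM in the L2/3 IT-like cluster (upper-layer projection neurons) led by Otof and Glis3. In every library these 3 clusters kept that order. Inhibitory clusters spanned 229 CPM in the Vip-like to 721 CPM in the Sst-like cluster, with 311 CPM in the Pvalb-like and 387 CPM in the Lamp5-like one. Smarca4 stayed within 165 to 192 CPM over the 9 excitatory clusters and within 147 to 213 CPM over the 4 inhibitory ones. Smarcc1 stayed within 107 to 136 CPM over the same excitatory clusters, and Actl6b within 39.5 to 72.1 CPM. No member was among the 3000 variable genes used for clustering.

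**Figure D5:**
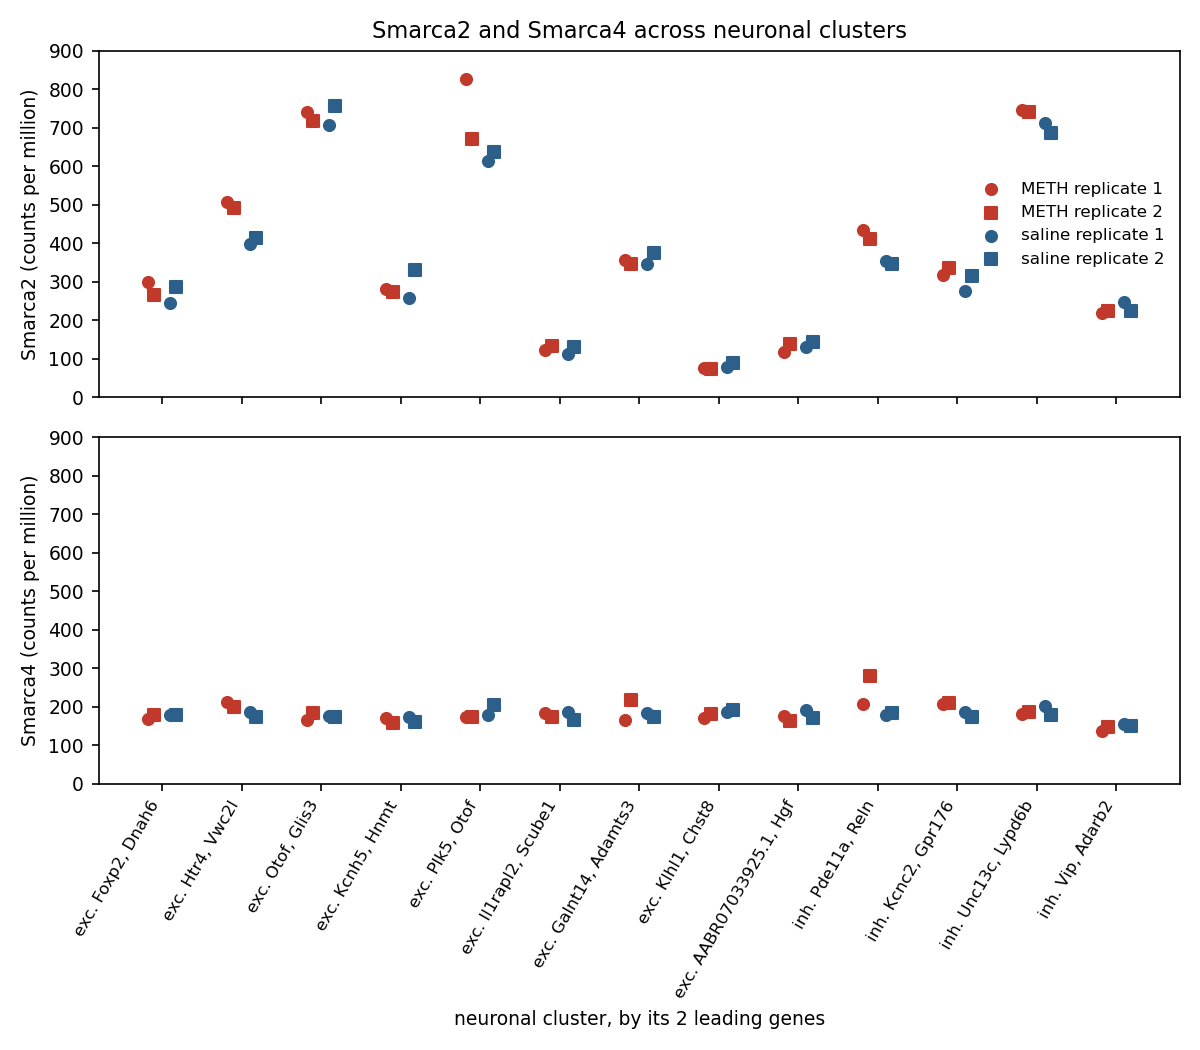
Level of Smarca2 (top) and Smarca4 (bottom), in CPM, in 9 excitatory and 4 inhibitory clusters named by their leading genes; each point is 1 library, red for METH and blue for saline. Smarca2 cluster means span 79.4 to 730.4 on the same axis on which Smarca4 means span 147 to 213.

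Neither the other subunits nor other remodelling complexes passed the test for METH. Of 21 further BAF genes, all tested in astrocyte-like nuclei, 15 had a log2 fold change above 0 and 0 were called, with a median of 0.08 beside -0.00 for all genes. The smallest p among them belonged to Ss18, the subunit linked to synovial sarcoma fusions, at 84.9 and 89.4 CPM after METH and 71.5 and 66.4 CPM after saline (0.35, SE 0.15, adjusted p 0.999 by edgeR). Actb, the actin of the complex and of the cytoskeleton, had 0.30 (SE 0.20). In astrocyte-like nuclei 0 of 9 tested ISWI genes, 0 of 20 CHD and NuRD genes and 0 of 10 INO80 and SRCAP genes were called. By unadjusted p under 0.05 the counts were 1 (Ss18), 0, 0 and 1 (Srcap), and DESeq2 called 0. The 2 smallest p in each list belonged to Baz1a (-0.33, SE 0.21) and Smarca5 (0.17, SE 0.17) for ISWI, Mta2 (0.43, SE 0.29) and Chd1 (-0.13, SE 0.13) for CHD and NuRD, and Srcap (-0.26, SE 0.12) and Actr8 (0.23, SE 0.21) for INO80 and SRCAP. Over all 8 classes, 0 of 132 tests of further BAF genes were called, with 5 higher and 2 lower at an unadjusted p under 0.05, where 3.22% to 7.04% of all genes fell by class. These 7 are named after their values were seen. Higher were Dpf3 (log2 fold change 0.40, SE 0.16) and Ss18l1 (0.29, SE 0.12) in excitatory neuron-like nuclei, Ss18 in astrocyte-like, Bicral (0.42, SE 0.17) in oligodendrocyte-like and Actb (0.44, SE 0.22) in OPC-like nuclei. Lower were Phf10 (-0.47, SE 0.17) and Bcl11a (-0.20, SE 0.07) in inhibitory neuron-like nuclei. For Phf10, at 27.8 and 27.5 CPM after METH and 46.7 and 30.8 CPM after saline, and for Bcl11a, at 442 and 448 CPM against 540 and 479 CPM, the highest value belongs to saline replicate 1.

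Genes with a profile like that of Smarcc1 or Actl6b were sought over 28 points, 7 classes in 4 libraries, by Pearson correlation of log2(CPM + 1). The points share libraries and depth, so the values describe likeness only. Ccdc181 was most like Smarcc1 (r = 0.90), followed by Serpine2 and Pou2f1 (0.87 and 0.86), Nrarp (0.86) and Plcd4 (0.85). Of the partners, Smarcc2 came closest at 0.51, and Smarca2 had 0.26. The genes most like Actl6b were Syt1, Syn2 and Srrm3 (0.95 each) and Snap25 and Reep1 (0.94 each). Syt1, Syn2 and Snap25 encode proteins of synaptic vesicle release. Of the subunits Smarca4 was nearest to Actl6b at 0.56, and Arid1a and Smarce1 were most unlike it at -0.74 and -0.67.

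The 5 genes other than the subunits with the smallest p in astrocyte-like nuclei were not called by edgeR. Cst3, which encodes the secreted protease inhibitor cystatin C, was at 749 and 751 CPM after METH and 483 and 495 CPM after saline (log2 fold change 0.62, SE 0.10, adjusted p 0.080 by edgeR). Tsc22d3, a glucocorticoid-induced gene, was at 49.3 and 66.8 CPM against 29.1 and 23.8 CPM (1.15, SE 0.23). B2m, the light chain of MHC class I, was at 101 and 115 CPM against 70.7 and 60.6 CPM (0.73, SE 0.15). Lrrc4c, a synaptic adhesion gene, was at 194 and 193 CPM against 266 and 270 CPM (-0.46, SE 0.11), and Cpne8, a copine, at 22.7 and 16.7 CPM against 52.6 and 32.8 CPM (-1.13, SE 0.27).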

How the data were processed

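Nuclei were profiled with 10x Genomics 3′ chemistry. The deposited files hold UMI counts per gene and barcode, not normalized, which the authors made with Cell Ranger 7.0.0, per the submitters' processing notes. Those notes list hg38, a human build. All 25399 gene identifiers are nevertheless rat Ensembl ones. Which rat build was used is not stated in the labels or headers, and the only coordinates printed are RefSeq's on GRCr8.

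Barcodes with under 500 genes or over 5% mitochondrial UMIs were left out. Scrublet's own cut-off found 0 doublets in saline replicate 1. In every library the highest doublet scores were therefore removed, at 0.8% per 1000 barcodes (843 and 653 for METH, 2817 and 590 for saline). Counts were scaled to 10000 per nucleus, and 3000 variable genes, 30 principal components and 20 neighbours gave Leiden clusters at resolution 1 (Scanpy 1.11.5, Python 3.11.15). A cluster was named from its marker score (at least 0.4, the next list at most 0.6 of it) when 10% of its nuclei or more showed each of 3 or more markers, and "-like" marks such names. The class make-up may differ from other annotations of these nuclei.

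Counts were summed per library and class, for classes with at least 50 nuclei in every library. METH and saline, 2 libraries each, were compared by the two-sided quasi-likelihood F test of edgeR 4.0.16 in R 4.3.3 (TMM factors, filterByExpr, robust), adjusted by the Benjamini-Hochberg method over all genes of a comparison, with calls at an adjusted p under 0.05. DESeq2 1.42.0 and the settings named under the limits were alternatives. Scripts were tested on simulated data. The smallest p of an exact permutation test of 2 libraries against 2 is 0.333, so none is given. The subunits and the lists of other remodellers were chosen with earlier results of these data known. The rule for named genes gives all 10 subunits, fixed genes in comparisons of classes, called genes of the lists or otherwise the 2 with the smallest p in astrocyte-like nuclei, the 5 most alike with a mean of at least 10 CPM, and the 5 other astrocyte genes with the smallest p.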

Additional observations from a re-analysis of the deposited data

How the results depend on the processing

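No setting called a partner subunit. Apart from Smarcc1 in astrocyte-like nuclei and its difference from excitatory ones, 1078 refits of a subunit were made under another setting, over 82 pairs of a subunit and a comparison. Of these, 0 passed an adjusted p under 0.05, and 143 estimates changed sign, which for uncalled values near 0 sets no direction. The alternatives include leaving the subunits out of the clustering. That setting could change nothing, since no subunit was among the variable genes. The log2 fold change of Smarcc1 in astrocyte-like nuclei stayed between 0.78 and 0.92 over 14 alternatives. The number of genes called in astrocyte-like nuclei, 1 in the fit reported, was less steady: 11 without a filter on low counts, 0 without robust estimation, 3 with at least 1000 genes per nucleus, 0 with doublets kept, 0 after thinning the libraries to equal depth, 22 at resolution 2, and 2 to 127 when 1 library was left out (2 without METH replicate 2, 39 without METH replicate 1, 12 without saline replicate 1 and 127 without saline replicate 2). Where the count was 0, Smarcc1 was not called either. The gene was chosen on these values, so nothing is read from whether a setting called it. In all other nuclei summed, leaving out 1 library gave 0 to 420 called genes. The cause was not tested. The METH minus saline difference in the share of astrocyte-like nuclei with a Smarcc1 UMI was 11.6 percentage points, and 10.6 to 12.3 at 1500 UMIs or as deposited. This share rests on the same UMIs on which the gene was chosen.

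The ratio of highest to lowest class was followed with newly formed oligodendrocyte-like nuclei left out. It was near its value under the reported settings, with the same classes at its ends, in 44 of 71 alternatives. These again include the setting without the subunits in the clustering, which could change nothing. Per nucleus, without scaling to the class total, excitatory neuron-like nuclei, the deepest, came first for every subunit. With at least 1000 genes per nucleus Actl6b is listed at 0 in vascular-like nuclei and gave no ratio. Depth limits the small classes, where intervals of a log2 fold change reach 1.65.

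With the replicate number as a block (the labels do not say that a number marks a shared animal or day), 0 subunits were called in any class, and the genes called in astrocyte-like nuclei numbered 14. Same-numbered libraries deviated together little, with correlations of -0.03 to 0.19 over classes.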

Other observations

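Smarca2 in neuronal clusters gave values that belong to no tested comparison and were singled out from all neuronal clusters after they were seen. In excitatory neuron-like nuclei as a class, both METH values exceeded both saline values for 11.5% of genes and lay below for 20.2%. In inhibitory neuron-like nuclei these shares were 16.5% and 15.9%. In the excitatory cluster led by Htr4 and Vwc2l it was at 507 and 493 CPM after METH and 398 and 414 CPM after saline. In the Lamp5-like cluster it was at 436 and 410.4 CPM after METH and 354 and 347 CPM after saline. In the cluster led by Klhl1 and Chst8, where Smarca2 was lowest, it was at 75.4 and 73.5 CPM after METH and 80.0 and 88.6 CPM after saline. No test was run by cluster.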
